A study of Mus musculus with 5 samples.

Results

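The RNAs described here are the small mitochondrial rRNA (mt-Rnr1), the large mitochondrial rRNA (mt-Rnr2) and the tRNA for leucine that follows the large rRNA on the mitochondrial genome (mt-Tl1). They were chosen by name, as the 3 rows MT-RNR1, MT-RNR2 and MT-TL1 among the 12930 genes of the deposited table, and all 3 had a value in every siRNA library, as did 12088 genes in all. Mouse embryonic stem cells of the OG2 line, whose strain entry names (CBA/CaJxC57BL/6J) and 129Sv/Jae female mice, were transfected with siRNA against Dhx30 (2 libraries, siDhx30), siRNA against Tfam (2 libraries, siTfam) or a negative control (1 library, NC). All groups shared 24 h on gelatin in N2B27 medium with LIF, PD0325901 and CHIR99021, then transfection at 50 nM siRNA and 36 h in a medium with bFGF, Activin A and knockout serum replacement. In the table each of the 4 siRNA libraries has its own column of log2 ratios, taken to be against the single NC library. Levels, counts and read totals were not analysed here. The depth is therefore unknown, and the abundance of one RNA cannot be set against that of another.

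Mitochondrial DNA is transcribed on both strands into long precursors. On the heavy-strand precursor the rRNAs and mRNAs are separated by tRNAs, and the tRNAs are cut out by RNase P at their 5′ ends and by ELAC2 at their 3′ ends, which frees the RNAs between them. The rRNAs form the cores of the small and large subunits of the mitochondrial ribosome, and mt-Tl1 encodes the tRNA that reads the leucine codons UUA and UUG. The gene of that tRNA also holds the binding site of the termination factor MTERF1. TFAM packages mitochondrial DNA and acts in transcription initiation, and DHX30 is a helicase of the RNA granules in which the mitochondrial ribosome is assembled.

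In GENCODE M21 on GRCm38, mt-Rnr1 (ENSMUSG00000064337.1) is a gene of 955 bases at chromosome M, 70 to 1024, plus strand. The gene mt-Rnr2 (ENSMUSG00000064339.1) has 1582 bases at 1094 to 2675 and mt-Tl1 (ENSMUSG00000064340.1) has 75 bases at 2676 to 2750, both on the plus strand. No other annotated gene overlaps any of the 3 on either strand. Between the rRNA genes lies mt-Tv, the gene of tRNA-Val, with no base left over on either side, and mt-Rnr2 likewise ends on the base before mt-Tl1. The GC content was 35.8% in mt-Rnr1, 35.4% in mt-Rnr2 and 44% in mt-Tl1. The borders are shown because a fragment that crosses one of them carries bases of 2 annotated genes, with 30 bases on each side, 5′ to 3′, the tRNA part in capitals and the rRNA part in lower case. They are credited to GENCODE M21 transcripts, and the positions are on GRCm38, plus strand: chrM:995-1054, chrM:1064-1123 and chrM:2646-2705, in the order shown.
mt-Rnr1 to mt-Tv: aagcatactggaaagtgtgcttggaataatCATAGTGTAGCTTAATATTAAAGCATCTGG
mt-Tv to mt-Rnr2: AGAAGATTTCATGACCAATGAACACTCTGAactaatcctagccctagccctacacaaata
mt-Rnr2 to mt-Tl1: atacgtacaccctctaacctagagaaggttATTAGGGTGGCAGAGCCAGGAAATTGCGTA

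The mitochondrial genome encodes a second leucine tRNA, mt-Tl2 (chrM:11671-11741, plus strand, 71 bases), which reads the CUN codons and lies far from the rRNAs. It is set beside mt-Tl1 below, and was named after its values were seen. In the annotation 1 other gene overlaps mt-Tl2. The whole genes are shown with the anticodon in capitals, found as bases 36 to 38 of mt-Tl1 and 33 to 35 of mt-Tl2 by the pairing of the stem around it. Aligned end to end, 45 of 88 columns held the same base (51.1%).
mt-Tl1: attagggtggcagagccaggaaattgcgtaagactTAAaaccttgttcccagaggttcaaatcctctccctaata
mt-Tl2: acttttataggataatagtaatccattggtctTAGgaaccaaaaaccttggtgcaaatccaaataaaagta

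Ratios are given as siRNA library over NC on the log2 scale. The column headings state no direction. All 1574 values of the 842 genes that lacked a value in some library were negative as deposited. NC is common to all columns, so a gene that is missing for one siRNA library and present for another cannot owe its presence to a high NC value. Under a filter that asks either library to reach a minimum, it is present because the siRNA library is high. The deposited sign was therefore read as NC over siRNA and turned round for every value here. Other kinds of filter were not examined. With the deposited sign kept, every direction below would be the opposite. A value shared by all 4 siRNA libraries and a deviation of the single NC library cannot be told apart for any of the values below. Whether replicates came from separate cultures is not stated in the labels, so the p-values reflect library-to-library spread that may be technical.

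Among the targeted genes, Dhx30 had ratios of -0.40 and -0.20 with its own siRNA, and Tfam ratios of -0.28 and -0.02 with its own. Neither passed limma against NC (adjusted p = 0.998 and 0.987). Of 15 listed markers of pluripotent stem cells 5 had values (Esrrb, Tfcp2l1, Sall4, Dnmt3b and Otx2), while no row carried the name of Pou5f1, Nanog or Sox2. Of the fibroblast or feeder list 4 of 11 genes had complete values, of the primitive endoderm list 4 of 10 and of the trophoblast list 0 of 6. With ratios alone, the identity of the cells could not be checked further. The primitive endoderm genes with complete values were Col4a2, Dab2, Lama1 and Col4a1, with none of Gata4, Gata6, Sox17 or Sox7. Their medians were -0.37 in siDhx30 and -1.08 in siTfam. Feeder medians were 0.06 and -0.0029, but means over the 4 libraries ran from -0.54 (Col1a2) to 0.51 (Thy1). Pluripotency medians were 0.05 and 0.28. Whether such other cells were present, and their part in the ratios below, was not tested. The library medians over all genes lay between -0.0146 and -0.0057.

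The large rRNA had the lowest ratios of the 3 RNAs in every library. The ratio of mt-Rnr2 was -0.57 in siDhx30 replicate 1 and -0.34 in replicate 2 (67.1% and 78.9% of NC), against -0.53 in siTfam replicate 1 and -0.28 in replicate 2 (69.2% and 82.5% of NC). All 4 values lay below NC, and the siDhx30 and siTfam values overlapped. In the same library, 10.2% to 24.8% of genes were lower, so mt-Rnr2 lay low in each distribution but inside its broad lower flank. Over the 4 libraries its mean was -0.43, and 12% of genes had a lower mean.

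The small rRNA was nearer to NC. The ratio of mt-Rnr1 was -0.27 in siDhx30 replicate 1 and -0.14 in replicate 2 (82.8% and 90.5% of NC), against -0.09 in siTfam replicate 1 and -0.04 in replicate 2 (94.2% and 97% of NC). Again all 4 values lay below NC. Both siDhx30 values were lower than both siTfam values, a pattern of groups that did not overlap which 14.3% of all genes showed in that direction. The mean over the 4 libraries was -0.14, with 32.5% of genes lower.

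The tRNA that follows the large rRNA stayed within 0.13 of NC on the log2 scale. Its gene is shorter than 1 read, and whether its fragments came from the cut tRNA or from longer precursor was not tested. The ratio of mt-Tl1 was 0.08 in siDhx30 replicate 1 and 0.04 in replicate 2 (106% and 103% of NC), against -0.13 in siTfam replicate 1 and 0.02 in replicate 2 (91.5% and 101% of NC). Both siDhx30 values were above NC, as for 32.1% of all genes, and both were above both siTfam values, as for 14.7% of all genes. Its mean over the 4 libraries was 0.0036, with 53.4% of genes lower. Being below NC in all 4 libraries, as both rRNAs were and mt-Tl1 was not, was found for 22.4% of all genes, so it is a frequent pattern in this table.

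**Figure D1:**
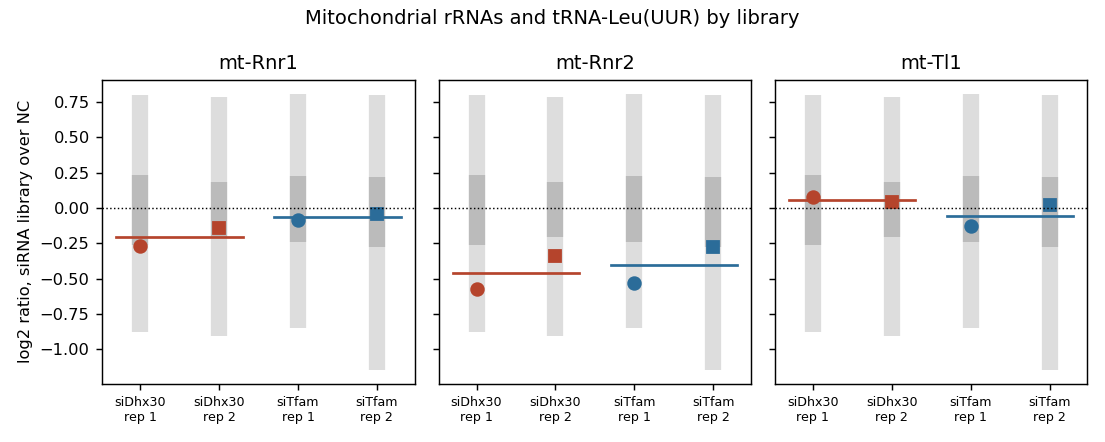
Log2 ratio of each siRNA library over NC (y axis) for mt-Rnr1, mt-Rnr2 and mt-Tl1, with circles for replicate 1, squares for replicate 2, coloured lines for group means, dark and light grey bars for the middle 50% and 90% of all complete genes in that library, and a dotted line at NC. The mt-Rnr2 values, from -0.57 to -0.28, lie below the dark bars in every library, whereas mt-Tl1 lies inside them.

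None of the 3 RNAs passed the test against NC for siDhx30. The test was limma on the ratios of all 12088 complete genes with the NC library entered as 0, and the adjusted p is by Benjamini-Hochberg over all of them. The mean for mt-Rnr2 was -0.46 (SE 0.23, n = 2), or 72.8% of NC, with a 95% interval from 46.7% to 113% (limma adjusted p = 0.998; unadjusted p = 0.118). For mt-Rnr1 the mean was -0.21 (SE 0.19, n = 2), or 86.6% of NC, with an interval from 60.6% to 124%. For mt-Tl1 it was 0.06 (SE 0.19, n = 2), or 104% of NC, with an interval from 72.6% to 150%. By the same test 0% of all genes passed an adjusted p of 0.05 by limma, and 609 (5.04%) had an unadjusted p under 0.05, of which none was one of the 3.

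The same held for siTfam against NC. The mean for mt-Rnr2 was -0.40 (SE 0.23, n = 2), or 75.5% of NC, with a 95% interval from 48.5% to 118% (limma adjusted p = 0.928; unadjusted p = 0.154). For mt-Rnr1 the mean was -0.07 (SE 0.19, n = 2), or 95.6% of NC, with an interval from 66.9% to 137%. For mt-Tl1 it was -0.05 (SE 0.19, n = 2), or 96.4% of NC, with an interval from 67.1% to 138%; without siTfam replicate 1 its sign turned to 0.02. By limma 0% of genes passed, and 739 (6.11%) had an unadjusted p under 0.05, again none of the 3. Because siDhx30 and siTfam are divided by the same NC library, their likeness for mt-Rnr2 is not given as a result.

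The NC library drops out of the comparison of siDhx30 with siTfam, in which both arms have 2 libraries. The difference was -0.14 (SE 0.15) for mt-Rnr1, with a 95% interval from -0.56 to 0.28. It was -0.05 (SE 0.19) for mt-Rnr2, with an interval from -0.58 to 0.47, and 0.11 (SE 0.15) for mt-Tl1, with an interval from -0.31 to 0.54. The limma adjusted p was 0.999 for each, 0% of genes passed by limma, and 337 (2.79%) had an unadjusted p under 0.05, none of them one of the 3. The mt-Rnr2 difference changed sign without siDhx30 replicate 1 (0.06) and without siTfam replicate 2 (0.07), and leaving out siDhx30 replicate 2 gave -0.17 and siTfam replicate 1 gave -0.18. For mt-Tl1, leaving out siTfam replicate 1 gave 0.04 and siTfam replicate 2 gave 0.19, and that of mt-Rnr1 was -0.08 without siDhx30 replicate 1. Differences inside these intervals could not be told from 0 with these libraries.

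**Figure D2:**
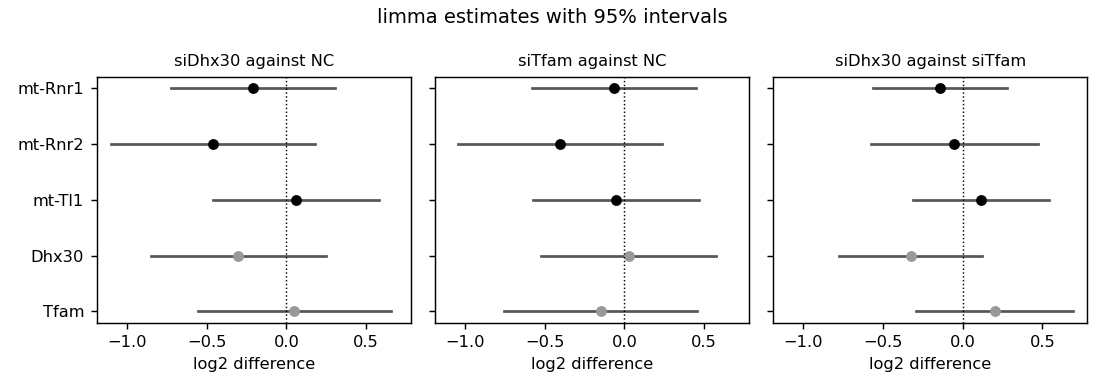
Estimated log2 difference (x axis, points) with 95% limma intervals (lines) for mt-Rnr1, mt-Rnr2 and mt-Tl1 in black and the targeted genes Dhx30 and Tfam in grey, 1 panel per comparison. Every interval crosses 0, and the mt-Rnr2 points lie farthest below 0 in both comparisons with NC, at -0.46 and -0.40.

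The balance between the 3 RNAs inside a library does not depend on how that library was scaled. The part of any rRNA removal during library preparation, in this balance and in the rRNA ratios above, was not tested. The log2 ratio of mt-Rnr2 minus that of mt-Rnr1 was -0.30 in siDhx30 replicate 1 and -0.20 in replicate 2, against -0.45 in siTfam replicate 1 and -0.23 in replicate 2. The large rRNA was therefore lower relative to the small rRNA than in NC in all 4 libraries, with a mean of -0.25 ± 0.07 (SD, n = 2) in siDhx30 and -0.34 ± 0.15 (SD, n = 2) in siTfam. The siDhx30 and siTfam values overlapped.

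The tRNA stood above the adjoining large rRNA, relative to NC, in every library. The ratio of mt-Tl1 minus that of mt-Rnr2 was 0.65 in siDhx30 replicate 1 and 0.38 in replicate 2, against 0.40 in siTfam replicate 1 and 0.30 in replicate 2. The means were 0.52 ± 0.19 (SD, n = 2) and 0.35 ± 0.07 (SD, n = 2), and the groups overlapped. The pair are neighbours on 1 precursor with no base between them, and their ratios to NC differed in each of the 4 libraries. These ratios share 1 NC library, and the cause was not tested.

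Against the small rRNA the tRNA stood higher in siDhx30 than in siTfam. The ratio of mt-Tl1 minus that of mt-Rnr1 was 0.35 in siDhx30 replicate 1 and 0.19 in replicate 2, against -0.04 in siTfam replicate 1 and 0.07 in replicate 2. The siDhx30 values lay above the siTfam values without overlap, at means of 0.27 ± 0.12 (SD, n = 2) and 0.01 ± 0.08 (SD, n = 2). Since mt-Rnr1 was lower and mt-Tl1 higher in siDhx30 without overlap, as given above, their difference could not overlap. A two-sided exact permutation test gave p = 0.333 for that difference of 0.26. That is the smallest p that 2 libraries against 2 can give, and the lack of overlap fixed it in advance. For mt-Rnr2 minus mt-Rnr1 and for mt-Tl1 minus mt-Rnr2 the same exact permutation test gave p = 0.667. All of these differences against NC also carry any deviation of the NC library, which enters each of the 4 values.

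**Figure D3:**
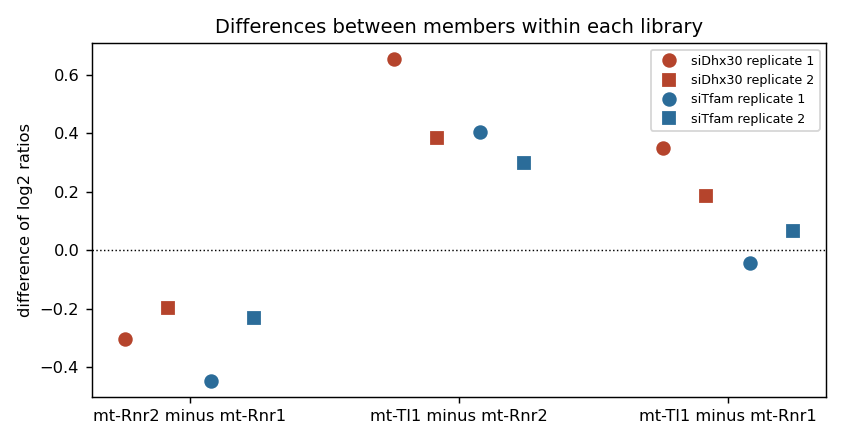
Difference of log2 ratios to NC between pairs of the 3 RNAs within each siRNA library (y axis), for the pairs named on the x axis, with circles for replicate 1 and squares for replicate 2. The mt-Rnr2 minus mt-Rnr1 points are all below 0 (-0.45 to -0.20), the mt-Tl1 minus mt-Rnr2 points all above 0 (0.30 to 0.65), and the mt-Tl1 minus mt-Rnr1 points above 0 in siDhx30 and on both sides of 0 in siTfam.

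Within each siRNA group the library with the lower target ratio was also the one with the lower rRNA ratios. In siDhx30, replicate 1 minus replicate 2 was -0.21 for Dhx30, -0.23 for mt-Rnr2 and -0.13 for mt-Rnr1. In siTfam it was -0.27 for Tfam, -0.25 for mt-Rnr2 and -0.04 for mt-Rnr1. For mt-Tl1 the same difference was 0.04 in siDhx30 and -0.15 in siTfam. A lower value in replicate 1 of both groups, as both rRNAs had, was found for 32.3% of all genes, and 2 libraries a group do not allow a test of a relation with the target.

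The 3 RNAs varied little between libraries beside the other mitochondrial RNAs. The span from the lowest to the highest of the 4 ratios was 0.23 for mt-Rnr1, 0.30 for mt-Rnr2 and 0.21 for mt-Tl1, against a median of 0.46 over all genes. Of all genes, 17.9%, 28.6% and 15.2% had a smaller span, in that order. The other 11 measured mitochondrial RNAs are all tRNAs, and their spans ran from 0.45 (mt-Tp, tRNA-Pro) to 3.70 (mt-Ts1, a serine tRNA), with a median of 0.94. None of the 11 had a span below that of mt-Tl1. The depth and abundance behind these spans are unknown, and the part of gene length, which differs between the 3 RNAs as given above, was not tested.

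The second leucine tRNA had wider gaps between replicates than the first. The ratio of mt-Tl2 was -0.94 in siDhx30 replicate 1 and -0.06 in replicate 2, against -0.83 in siTfam replicate 1 and -0.06 in replicate 2. Its gap between replicates was 0.88 in siDhx30 and 0.77 in siTfam, whereas that of mt-Tl1 was 0.04 and 0.15. The isoleucine tRNA mt-Ti, the next measured gene after mt-Tl1 on the heavy-strand precursor, had ratios of -0.06 and -0.83 with siDhx30, -0.97 and -0.60 with siTfam. The methionine tRNA mt-Tm, the one after it, had ratios of 1.16 and 0.22 with siDhx30, 0.25 and -0.18 with siTfam. Neither mt-Tv, between the rRNAs, nor mt-Tf, the tRNA-Phe gene ahead of mt-Rnr1, was found among the deposited names, and of the 13 mitochondrial mRNA genes 0 were, so the rest of the precursor from the start to mt-Tl1 has no value here.

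**Figure D4:**
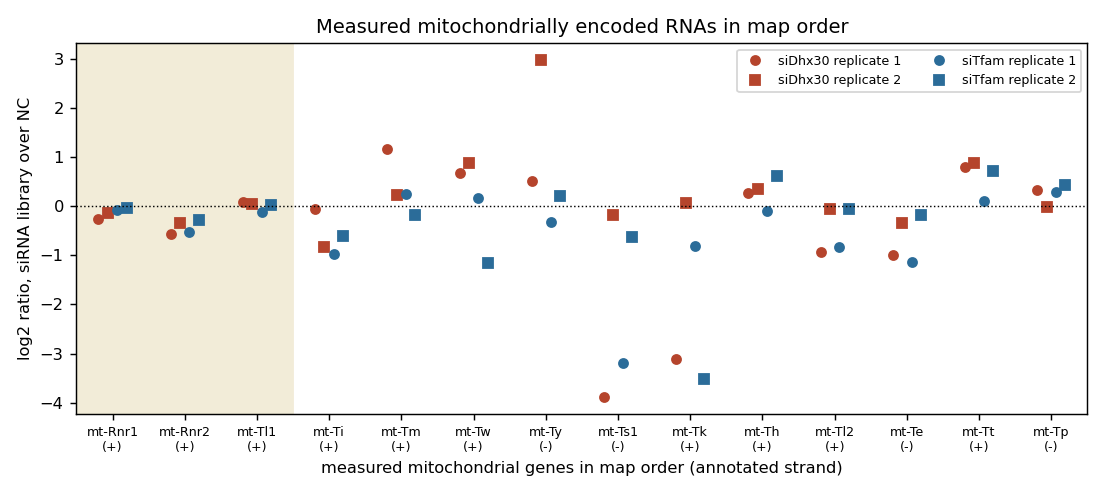
Log2 ratio of each siRNA library over NC (y axis) for the 14 measured mitochondrial RNAs in map order (x axis, annotated strand in brackets), with mt-Rnr1, mt-Rnr2 and mt-Tl1 shaded and the 4 libraries as coloured circles and squares. The points of the 3 shaded RNAs lie within 0.30 of each other for each RNA, whereas those of mt-Ts1 spread over 3.70.

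By the root mean square difference of the log2 ratios over the 4 libraries, the genes outside mitochondrial DNA nearest to mt-Rnr1 were Gnai2 (0.02), Daxx (0.03) and Timm17b (0.03). Nearest to mt-Rnr2 were Ncln (0.03), Ptp4a3 (0.03) and Lsm4 (0.04), and nearest to mt-Tl1 were Shprh, Pi4k2b and G3bp2 (0.03 each). These were picked as the 3 smallest differences from each RNA. Between the 3 RNAs themselves, a fixed set that was not picked for likeness, the same measure was 0.20 for mt-Rnr1 and mt-Tl1, 0.31 for mt-Rnr1 and mt-Rnr2 and 0.45 for mt-Rnr2 and mt-Tl1.

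Genes of the making, cutting and modification of mitochondrial RNA were described from lists. In each list 0 members passed limma in any comparison, as did 0% of all genes. Of 13 genes of mitochondrial transcription and termination 8 had complete values, with medians of -0.02 in siDhx30 and -0.08 in siTfam against -0.01 and -0.02 over all genes. The lowest means over the 4 libraries were those of Mterf1a (-0.41), one of the mouse genes for the factor that binds inside mt-Tl1, and Tfb2m (-0.25), the initiation factor that melts the promoter. The Mterf1a ratios were 0.28 and -1.11 with siDhx30, -0.0042 and -0.79 with siTfam, so its replicates differed by more than the mean. The highest means were those of Polg (0.09), the mitochondrial DNA polymerase, and Mterf4 (0.24), which works in large subunit assembly.

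Of 17 genes that cut, degrade, bind or otherwise process mitochondrial RNA 14 had values, with medians of 0.01 in siDhx30 and 0.03 in siTfam. Grsf1, an RNA-binding protein of mitochondrial RNA granules, had ratios of -1.66 and -1.29 with siDhx30, -1.47 and -1.09 with siTfam. That is 35.9% of NC in siDhx30 (limma adjusted p = 0.673) and 41.2% in siTfam (limma adjusted p = 0.676), and the difference between the siRNAs was -0.20 (SE 0.24). The exonuclease gene Rexo2 had a mean of -0.39, and Fastkd1 and Fastkd3, of a family of mitochondrial RNA-binding proteins, had means of 0.13 and 0.33.

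Of 28 genes of rRNA modification and ribosome assembly 25 had values, with medians of -0.12 in siDhx30 and -0.05 in siTfam. In siDhx30 16 of the 25 lay below NC and in siTfam 15, against 6269 and 6365 of 12088 genes. Mrm1, which methylates the large rRNA, had the highest mean at 0.75 and Nsun4, which methylates the small rRNA, the next at 0.52. Rpusd3, a pseudouridine synthase family member, and Ngrn, which binds the large rRNA, had the lowest means at -0.47 and -0.30. Replicates of Mrm1 and Rpusd3 lay far apart in 1 group each. The Mrm1 ratios were 0.11 and 1.08 with siDhx30, 0.80 and 1.01 with siTfam. Those of Rpusd3 were -0.66 and -0.26 with siDhx30, -0.90 and -0.05 with siTfam.

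Of 13 genes that charge, cut or modify mitochondrial tRNAs, some of them acting on tRNA-Leu and some on other tRNAs, 10 had values, with medians of 0.03 in siDhx30 and -0.0079 in siTfam. Lars2, the synthetase that charges both mitochondrial leucine tRNAs, had ratios of 1.36 and 1.11 with siDhx30, 1.12 and 1.44 with siTfam. The group means were 235% and 243% of NC, at limma adjusted p of 0.673 and 0.585, while siDhx30 and siTfam differed by -0.04 (SE 0.20). The next highest mean was that of Nsun3 (0.47), a methyltransferase of mitochondrial tRNA-Met, and the lowest were those of Trmu (-0.27) and Gtpbp3 (-0.13), which modify the wobble base of certain mitochondrial tRNAs. The mt-Tl1 ratios stayed near NC in the same libraries, with the limit given above on what its fragments came from.

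Genes named for mitochondrial ribosomal proteins were split by symbol alone, Mrps or Mrpl. Whether each protein lies in the subunit of its symbol, or in the ribosome at all, was not checked. For 26 Mrps genes the medians were -0.10 in siDhx30 and 0.04 in siTfam, with 17 and 11 of them below NC. For 40 Mrpl genes they were -0.05 and 0.05, with 27 and 13 below NC. Of all 12088 genes, 6269 lay below NC in siDhx30 and 6365 in siTfam. In siTfam replicates 1 and 2 the median was -0.07 and 0.11 for Mrps and -0.06 and 0.15 for Mrpl. The side of NC thus depended on the library for both. The lowest means were those of Mrpl42 (-1.82) and Mrpl54 (-0.56) among Mrpl genes and Mrps22 (-0.48) and Mrps15 (-0.42) among Mrps genes. The highest were those of Mrpl48-ps (0.39), a pseudogene that may share reads with its parent gene, Mrpl35 (0.30), Mrps36 (0.31) and Mrps30 (0.21). Mrpl42 lay between -2.06 and -1.67 in all 4 libraries, with a limma adjusted p of 0.497 in siDhx30 and 0.438 in siTfam.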

How the data were processed

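The 5 libraries were made from DNase-treated, fragmented total RNA by template switching and read as pairs of 150 bases, per the labels' protocols. GRCm38, bcl2fastq, HISAT2, featureCounts and DESeq2 are named in the submitters' processing notes. The settings, strand use and counting of fragments over more than 1 gene were not given in the sources used here. The gene mt-Tl1 is shorter than 1 read. The authors deposited log2 fold values, 1 column per siRNA library, per the file headers. Of the value columns, 0 were left unused.

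The sign was turned as described. The limma test (limma 3.58.1, R 4.3.3) had 1 coefficient per group, the NC library as 0, 2 residual degrees of freedom, robust=TRUE and Benjamini-Hochberg adjustment at 0.05. The same spread was assumed for NC as for the other libraries. The members, lists and tests were chosen with earlier results of these data known. Named genes were the members, their neighbours, the targets, the 2 highest and 2 lowest means of each list and the 3 nearest genes to each member. The gene mt-Tl2 and other examples outside that rule were named after their values were seen. Similar transcripts were sought with BLAST 2.17.0 (E at most 1e-05). Alternatives left out each siRNA library, kept only the groups compared, blocked on replicate number, used robust=FALSE, centred libraries, kept genes with missing values or left out mitochondrial genes. Python 3.11.15 was used for tables and plots.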

Additional observations from a re-analysis of the deposited data

How the results depend on the processing

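The count of genes past the threshold was 0 in all 3 comparisons under every alternative run. The mt-Rnr1 estimates kept their sign under every alternative run, as did those of mt-Rnr2 against NC, and those of mt-Tl1 in siDhx30 against NC and against siTfam. Leaving out 1 library changed the sign in 3 tested cases. The mt-Rnr2 estimate in siDhx30 against siTfam (-0.053) ranged from -0.181 to 0.0740, with 0.0635 without siDhx30 replicate 1 and 0.0740 without siTfam replicate 2. The mt-Tl1 estimate in siTfam against NC (-0.053) ranged from -0.128 to 0.0213, the last without siTfam replicate 1. Of the differences within a library, mt-Rnr2 minus mt-Rnr1 in siDhx30 against siTfam (0.089) ranged from -0.0173 without siTfam replicate 1 to 0.196 without siTfam replicate 2. For mt-Tl1 minus mt-Rnr1 in siTfam against NC (0.012) the value was -0.0417 without siTfam replicate 2, and it was 0.0657 when replicate 1 was the one left out. The cause was not tested. Replicates with the same number share only that number in the labels, and the correlation of their deviations was 0.254 over 12088 genes. With the replicate block, siDhx30 against siTfam was -0.14 for mt-Rnr1, -0.05 for mt-Rnr2 and 0.11 for mt-Tl1, at limma adjusted p of 0.895, 0.950 and 0.908, with 0 genes passing. The block is not defined for comparisons with NC, whose label carries no number. Depth is unknown, so no counting error could be given.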

Other observations

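Copies of mitochondrial sequence in nuclear transcripts were looked for in GENCODE M21, since a read of such a copy can be assigned to a mitochondrial gene or the reverse. For mt-Rnr1 0 other genes matched. For mt-Rnr2 there were 2, Cep295, a centriole gene with a retained-intron transcript that matched over 662 bases at 77.9% identity, and Gm20594, over 435 bases at 88.5%. For mt-Tl1 the same Cep295 transcript matched over 62 bases at 93.5% identity. For each of the 3 RNAs, 0 other genes matched at 95% identity over at least 75 bases. Of the matched genes only Cep295 was in the table, with ratios of 0.36 and 1.39 with siDhx30, 0.47 and 0.27 with siTfam. It was above NC in all 4 libraries, as were 2434 of 12088 genes, whereas mt-Rnr2 was below. Whether reads were shared between these genes was not tested. Nuclear copies outside annotated transcripts were not searched for here.

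Other structured non-coding RNAs differed more between libraries than the mitochondrial rRNAs. Of 12 listed genes with complete values, 12 had a wider span of ratios over the 4 libraries than mt-Rnr2 (0.30). Their spans ran from 0.31 to 3.07 with a median of 1.18. Only 28.6% of all genes had a smaller span than mt-Rnr2, so a wider one was frequent. The depth and abundance behind these spans are unknown, and the part of gene length was not tested. The list had medians of -0.17 in siDhx30 and 0.20 in siTfam, and 0 passed limma in any comparison, as did 0% of all genes. Rpph1, the RNA of nuclear RNase P, had ratios of -1.42 and -1.40 with siDhx30, 1.52 and -0.84 with siTfam. Snora43, a small nucleolar RNA, had ratios of 1.02 and 0.56 with siDhx30, 0.77 and 0.74 with siTfam. The lowest mean was that of Rnu73b (-0.97), and Snord104 had the second highest (0.56).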
